A study of Mus musculus with 12 samples.

Results

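The response of a gene to hypoxia was measured in BN1 cells both before and after cells with an active Tie2 promoter had been sorted, and the difference between both responses was examined here for every gene. BN1 is an immortalized mouse hepatoblastoma cell line from a liver tumour driven by mutant β-catenin and mutant NRF2, and its Cdkn2a gene was mutated with CRISPR. The cells carried a stably integrated Tie2-EGFP reporter, in which the promoter of the endothelial receptor gene Tek (Tie2) drives a green fluorescent protein, and stable clones had been pooled under G418. These features were shared by all 12 libraries, so that no group was free of them. Unsorted cells were harvested in normoxia, at 21% O2 (UN), or after 2 days in 1% O2 (UH). Sorted cells were EGFP-positive cells that had been collected by flow cytometry after hypoxia and then grown for about 10 days in normoxia (SN), or that were subsequently returned to 1% O2 for 2 days (SH). Each of the 4 groups had 3 libraries of polyA RNA. The quantity examined was the difference of log2 fold changes, (SH vs SN) minus (UH vs UN), on log2(TPM + 1), where TPM is the share of transcripts scaled to 1000000 per library. It was tested for the 18909 of 45706 listed genes whose mean over the 12 libraries was at least 0.1 TPM. A gene was called when the adjusted p of limma was under 0.05 and the difference exceeded 2-fold, that is 1 on the log2 scale. A positive difference is called here a more positive response of sorted cells, whether the gene rose more, fell less or rose instead of falling. The SN and SH cells had met hypoxia before and had passed a sort and an expansion, so that the effects of selection, of an earlier hypoxic exposure and of time in culture cannot be told apart. The study calls the libraries of a group independent replicas without saying in the sources used here whether they came from separate cultures, and if they did not, p-values measure only the spread between these libraries. Read depth cannot be recovered from TPM, and no counting error is given.

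When oxygen is scarce, the prolyl hydroxylases that mark the α subunits of the hypoxia-inducible factors (HIFs) for destruction lose activity, and the HIFs bind the core letters ACGTG near genes of glucose uptake, glycolysis, pH control and vessel growth. Hypoxic cells also slow DNA replication and division. Genes of DNA replication are mainly controlled by E2F factors, whereas genes of mitosis are mainly controlled through a cell cycle homology region (CHR, letters TTTGAA) often paired with CCAAT boxes that are bound by NF-Y, and p53 and its target p21 can repress both sets. In liver tumours these programmes meet others that are sensitive to oxygen, such as cholesterol synthesis, interferon signalling and matrix production.

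The libraries of a group resembled each other more than those of other groups, with Pearson's r over genes from 0.977 to 0.991 within groups and from 0.903 to 0.960 between them. UN replicate 1 stood apart from the other UN libraries, with 1003 genes more than 2-fold from the mean of both, against 205 to 434 genes in each of the 11 others. This library also held most fibroblast and pericyte marker RNA of its group. The summed level of these 17 markers was 5483 TPM in UN replicate 1 and 1647 and 1502 TPM in UN replicates 2 and 3, and it lay between 5262 and 7575 TPM in UH, 207 and 220 TPM in SN and 65.5 and 87.1 TPM in SH. Immune markers summed to between 9.92 and 13.1 TPM in UN and 65.2 and 73.0 TPM in SH, most of it Cd68, and endothelial markers did not exceed 10.8 TPM in any library. Albumin had a mean level of at most 2.51 TPM. Hepatocyte lineage markers summed to between 139 and 328 TPM, with the keratin Krt18 alone at 63.5 to 157 TPM. Of the 11 that were tested, 2 were higher in SN than in UN and 7 lower. Trf was at 37.9 to 61.4 TPM in SN and 0.921 to 3.36 TPM in UN, and Afp at 8.14 to 9.80 and 1.43 to 2.34 TPM. Dlk1 was at 0.270 to 0.596 TPM in SN and 13.5 to 83.8 TPM in UN. Tek itself, whose promoter drove the sort, was at 2.07 to 2.70 TPM in SN, 2.83 to 3.29 TPM in SH and at most 0.226 TPM in unsorted cells, with a difference of responses of 0.19 ± 0.17 (SE, limma adjusted p = 0.451). More genes were detected in SH, 21666 to 22369 above 0 TPM, than in the other 9 libraries, with 18901 to 20251.

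The hypoxia response of 1939 genes differed between sorted and unsorted cells. It was more positive in sorted cells for 1527 genes, 8.08% of those tested, and less positive for 412 genes, 2.18%. In the responses themselves, 1032 genes (5.46%) rose and 2222 genes (11.8%) fell in UH against UN, whereas 1412 genes (7.47%) rose and 945 genes (5.0%) fell in SH against SN. Both responses were called in the same direction for 1205 genes, 562 higher and 643 lower, and for 1071 of these the difference of responses was not called, which does not show that they were equal. Opposite responses were rare, with 25 genes called in both populations in different directions. Among genes with at least 1 TPM in at least 1 group of each population, 1105 were more positive and 312 less positive out of 12997.

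The excess of more positive responses depended on how the libraries were scaled. The median difference of responses over all genes was 0.25 on the TPM scale, made up of a median of −0.19 in unsorted and 0.03 in sorted cells. TPM fixes the total of each library, and with median-of-ratios scaling, which aligns the typical gene instead, the median became 0.02. With quantile normalisation it was 0.00. Of the called genes, 78.8% were more positive on the TPM scale, 53.6% with median-of-ratios scaling and 51.1% with quantile normalisation. The median-of-ratios factors, which give a library's typical TPM relative to all libraries, were lowest in UH (0.775 to 0.956) and between 0.952 and 1.15 in the other groups. 708 of the more positive genes (3.74% of genes tested) and 404 of the less positive genes (2.14%) were called under every scaling, including one without the 20 most abundant genes. List medians are therefore to be read against the median of all genes, 0.25 as TPM and 0.02 with median-of-ratios scaling. Whether a call held under every scaling is stated for some lists and some single genes only. Where it is not stated, this is not to be read as a call that failed.

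**Figure D1:**
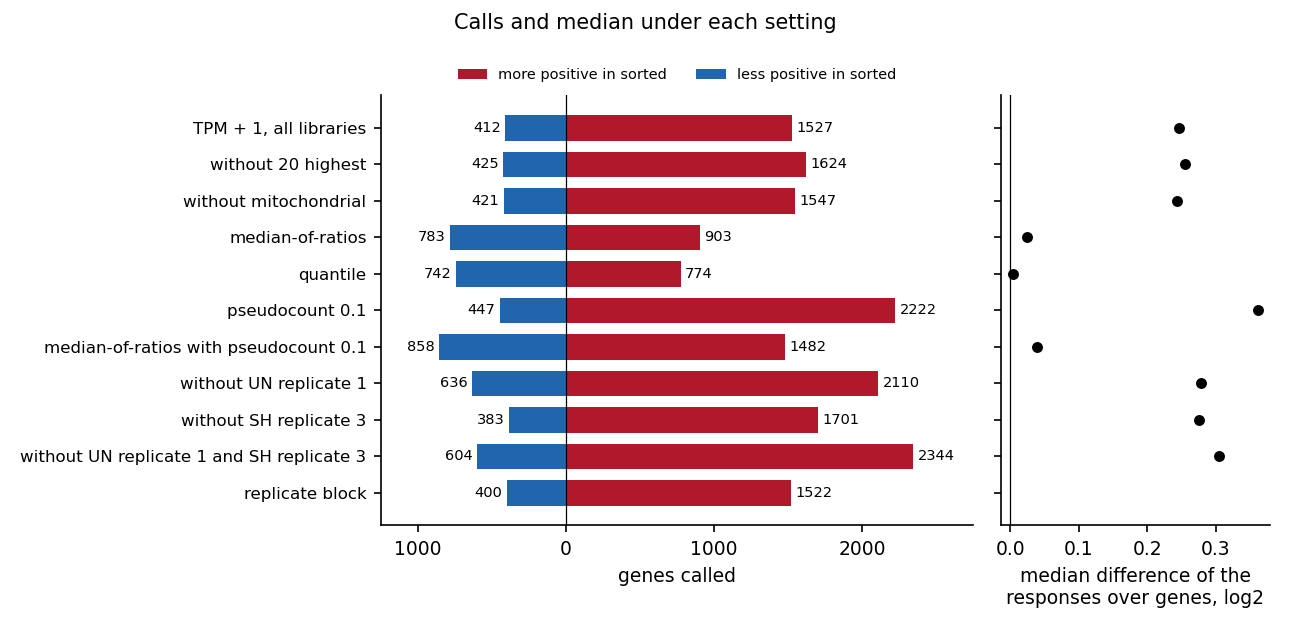
Genes called with a more positive (red, to the right) or less positive (blue, to the left) response in sorted cells under each setting, with the number of genes beside each bar, and on the right the median difference of responses over all tested genes (log2). The median moved from 0.25 to 0.02 with median-of-ratios scaling, and the counts became 903 and 783.

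**Figure D2:**
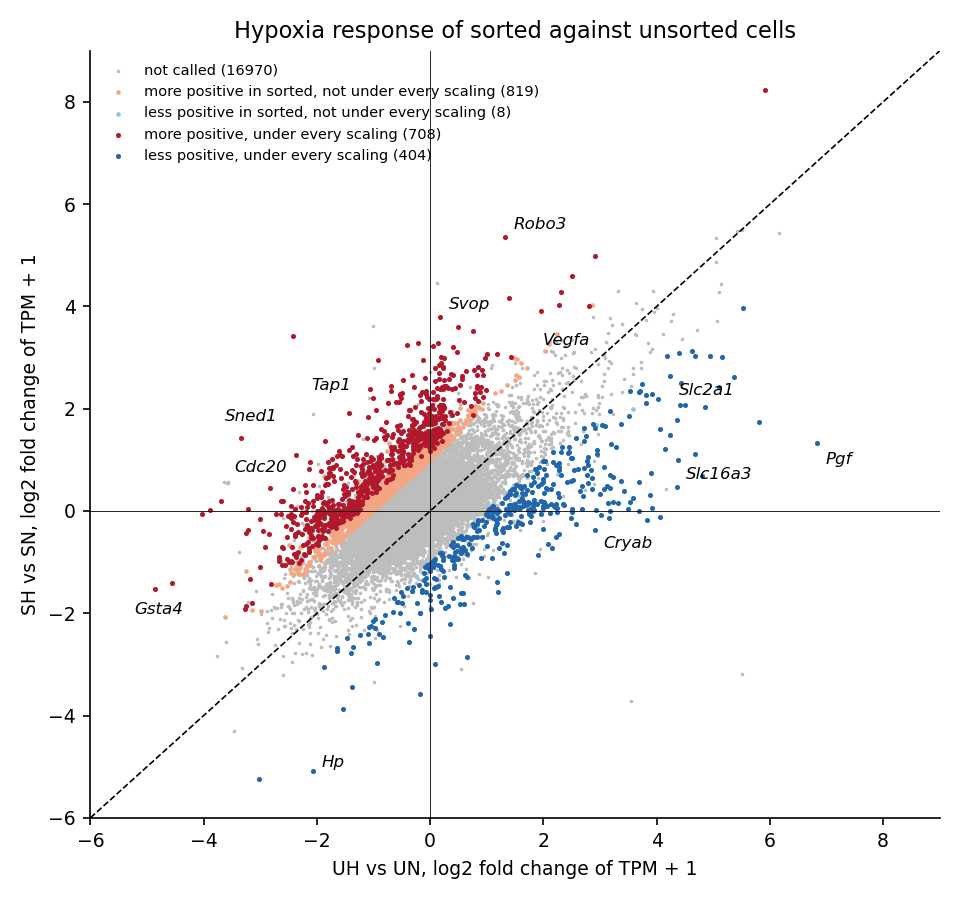
Each point is 1 of the 18909 tested genes, with the log2 fold change of TPM + 1 in unsorted cells (UH vs UN) on the x axis and in sorted cells (SH vs SN) on the y axis, and the dashed line marks equal responses. The 708 and 404 genes called under every scaling are dark, and the 819 and 8 genes called as TPM but not under every scaling are pale.

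A more positive response arose in several ways. For 605 of the 1527 genes (39.6%) the gene fell in UH and did not pass the test in SH against SN, and for 474 (31.0%) it rose in SH and did not pass the test in UH against UN. Both responses were called in 85 genes. In 26 of them the gene rose in both populations, in 37 it fell in both, and in 22 it fell in UH and rose in SH. In the remaining 363 neither response passed on its own. Starting levels differed between these classes. Of the 605 genes called lower in unsorted cells only, 298 were already lower in SN than in UN, and 159 were under 1 TPM in both sorted groups. Of the 474 genes called higher in sorted cells only, 326 were higher in SH than in UH, and 190 were under 1 TPM in both unsorted groups.

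The largest class of less positive responses held genes called higher in UH and not called in SH against SN. Of the 412 genes, 209 (50.7%) rose in UH and did not pass the test in sorted cells, 74 fell in SH and did not pass in unsorted cells, 55 rose in both and 16 fell in both. Of the 209, 150 were lower in SH than in UH, and 87 were under 1 TPM in both sorted groups. A gene that did not pass may still have changed. Apln, 1 of the 209, had a log2 change of 0.81 in SH (limma adjusted p = 0.0213), under the 2-fold threshold. Protein-coding genes made up 1316 of the more positive and 379 of the less positive genes. These were 9.04% and 2.60% of the 14560 protein-coding genes tested, near the 8.08% and 2.18% of all genes.

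The hypoxic fall of mitotic mRNAs was much smaller in sorted cells. Of 50 genes of mitosis and the spindle, 42 (84.0%) responded more positively in sorted cells and none less positively, against 8.08% and 2.18% of all genes, and 29 of the 42 were called under every scaling. In unsorted cells 48 of the 50 fell, with a median of −1.94, whereas in sorted cells 7 fell and 1 rose, with a median of −0.50. The median difference was 1.41, and 1.10 with median-of-ratios scaling, and all 50 differences were above 0. The summed level of the 50 genes was 3183, 3008 and 3070 TPM in UN and 698, 749 and 850 TPM in UH, against 3492, 3322 and 2872 TPM in SN and 2279, 2401 and 2129 TPM in SH. The sums did not overlap between UN and UH, between SN and SH or between UH and SH, so that they fell in both populations. They overlapped between UN and SN. Of single genes 44 were higher in SH than in UH and 1 was lower in SN than in UN. The 8 genes whose difference was not called were Anln, Aurkb, Bub1, Ccnf, Cdk1, Foxm1, Kif23 and Mad2l1. The count of 42 ranged from 38 to 43 when 1 library was left out, and it was 41 without UN replicate 1 and 41 without SH replicate 3. RNA from whole cultures cannot tell a smaller share of dividing cells from less RNA per cell.

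Genes of DNA replication did not share this difference to the same extent. Of 49 genes of replication and nucleotide synthesis, 6 (12.2%) were more positive and none less positive, and only 1 was called under every scaling. 41 fell in UH with a median of −1.81 and 34 fell in SH with a median of −1.49. The median difference was 0.38 beside 0.25 for all genes, and 0.07 beside 0.02 with median-of-ratios scaling. The summed level fell from between 2831 and 2911 TPM in UN to between 812 and 880 TPM in UH, and from between 3013 and 3539 TPM in SN to between 1033 and 1355 TPM in SH. Replication mRNAs thus fell in both hypoxic populations, while mitotic mRNAs fell mainly in 1 of them.

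The start-site sequences of both lists differed in the motifs they held. In windows from 250 bases before to 50 bases after the RefSeq start of each gene (GRCm38.p6), TTTGAA or its reverse complement TTCAAA was found in 34 of 43 windows of the mitotic list (79.1%), which covered 41 of its 50 genes. It was found in 6 of 46 windows of the replication list (13.0%), which covered 40 of 49 genes, and in 17.9% of all 32851 windows. CCAAT or ATTGG was found in 79.1%, 54.3% and 37.4% of these windows, and TTTGAA together with CCAAT, each on either strand, in 69.8%, 8.70% and 6.95%. The letters of either motif do not contain the other, and a match is a description and not a shown binding site. The windows of Cdc20 and Aurka, with large differences of response, and of Mcm5, which fell in both populations, are shown to let both kinds be compared. The window of Rrm2, a replication gene whose difference was called, held no TTTGAA on either strand and 1 CCAAT. Whether the motifs went with the difference of responses within either list was not tested. Capitals mark TTTGAA and CCAAT on the printed strand. The window of Cdc20 lay at chr4:118437294-118437593, that of Aurka at chr2:172370521-172370820, both on the minus strand, and that of Mcm5 at chr8:75109259-75109558 on the plus strand. The sequences read 5′ to 3′.
Cdc20: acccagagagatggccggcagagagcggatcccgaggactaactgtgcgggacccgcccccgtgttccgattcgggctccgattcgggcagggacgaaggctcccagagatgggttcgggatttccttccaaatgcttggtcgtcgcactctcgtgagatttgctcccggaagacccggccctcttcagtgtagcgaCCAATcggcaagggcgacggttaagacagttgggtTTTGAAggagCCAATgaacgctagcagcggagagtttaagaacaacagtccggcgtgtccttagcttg
Aurka: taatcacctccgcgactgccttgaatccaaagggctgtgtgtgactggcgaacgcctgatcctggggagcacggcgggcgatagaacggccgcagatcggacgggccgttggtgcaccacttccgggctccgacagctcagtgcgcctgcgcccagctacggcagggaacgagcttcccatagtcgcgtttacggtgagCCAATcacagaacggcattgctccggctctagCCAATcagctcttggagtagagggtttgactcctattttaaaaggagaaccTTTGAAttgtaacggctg
Mcm5: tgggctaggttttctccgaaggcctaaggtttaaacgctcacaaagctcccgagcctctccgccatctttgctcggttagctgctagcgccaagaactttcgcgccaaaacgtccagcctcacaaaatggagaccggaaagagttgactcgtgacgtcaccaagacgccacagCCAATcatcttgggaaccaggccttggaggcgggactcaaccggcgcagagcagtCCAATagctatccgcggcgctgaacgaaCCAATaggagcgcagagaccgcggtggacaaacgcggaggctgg

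Cdc20 (chr4:118432901-118437352, mm10), which activates the anaphase-promoting complex, was at 61.7, 45.9 and 47.0 TPM in UN and 9.70, 7.52 and 8.98 TPM in UH. It was at 41.2, 41.1 and 38.5 TPM in SN and 53.3, 54.6 and 56.2 TPM in SH. The 2 unsorted groups did not overlap and UH was the lowest of all, whereas SH lay above SN. The log2 fold change was −2.43 in unsorted and 0.43 in sorted cells, a difference of 2.86 ± 0.18 (SE, n = 3 per group, limma adjusted p = 3.61e-06). Aurka, the centrosomal mitotic kinase, was at 75.8, 68.9 and 67.1 TPM in UN, 17.5, 18.2 and 21.1 TPM in UH, 64.6, 65.6 and 54.6 TPM in SN and 91.0, 97.5 and 79.3 TPM in SH. Its SH libraries were thus the highest of the 12, and the difference was 2.37 ± 0.16 (SE, limma adjusted p = 7.33e-06). Kif18b, a kinesin that shortens spindle microtubules, fell by 1.66 on the log2 scale in UH and was at 61.1, 61.8 and 52.9 TPM in SH against 32.0, 33.0 and 27.5 TPM in SN, a log2 difference of responses of 2.57 ± 0.21 (SE, limma adjusted p = 2.62e-05).

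Cdkn3, a phosphatase that acts on cyclin-dependent kinases, fell in UH and rose in SH. It was at 22.4, 22.7 and 16.7 TPM in UN, 8.18, 5.88 and 4.55 TPM in UH, 7.53, 6.16 and 5.78 TPM in SN and 15.4, 18.9 and 13.6 TPM in SH. The 2 normoxic groups did not overlap, as SN started at the level of UH, and the log2 changes were −1.60 and 1.18 (difference 2.78 ± 0.29, SE, limma adjusted p = 0.000107). Plk1, the polo kinase of mitotic entry, showed a partial fall. It was at 93.3, 83.2 and 79.7 TPM in UN, 11.5, 12.8 and 15.6 TPM in UH, 102, 114 and 96.4 TPM in SN and 68.4, 59.5 and 61.0 TPM in SH, a difference of 1.89 ± 0.17 (SE, limma adjusted p = 4.29e-05). Foxm1, the transcription factor that drives late cell cycle genes, had log2 changes of −2.07 in unsorted and −1.52 in sorted cells, and their difference of 0.56 ± 0.23 (SE, limma adjusted p = 0.0991) was not called.

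Among replication genes, Rrm2, a subunit of ribonucleotide reductase, was the clearest exception. It was at 85.2, 106 and 108 TPM in UN, 9.02, 9.48 and 10.3 TPM in UH, 73.5, 69.5 and 52.8 TPM in SN and 13.8, 17.5 and 20.8 TPM in SH. Both hypoxic groups lay far below their normoxic group, and the fall of 1.85 in sorted cells was smaller than that of 3.24 in unsorted cells on the log2 scale (difference 1.39 ± 0.23, SE, limma adjusted p = 0.00202). Mcm5, a subunit of the replicative helicase, had log2 changes of −2.79 and −2.09, with a difference of 0.71 ± 0.23 (SE, limma adjusted p = 0.0448) that was under the 2-fold threshold. Pcna, the sliding clamp, had −1.30 and −1.78, with a difference of −0.49 ± 0.25 (SE, limma adjusted p = 0.187). Of 65 replication-dependent histone genes, whose mRNAs normally lack a polyA tail and are poorly measured in polyA libraries, 8 were more positive and 2 less positive, with a median difference of 0.58 (0.39 with median-of-ratios scaling) and 2 calls in each direction under every scaling. The more positive count of histones ranged from 5 to 10 when 1 library was left out, with 5 without UH replicate 2 or any single SN library.

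Of 27 inhibitors of the cell cycle and p53 targets, 8 (29.6%, against 8.08% of all genes) responded more positively in sorted cells and 1 less positively, with a median difference of 0.79 (0.45 with median-of-ratios scaling). The 1 exception was Cdkn1a, which encodes p21. It was at 86.5, 32.6 and 36.6 TPM in UN, 529.8, 545 and 574 TPM in UH, 181, 192 and 211 TPM in SN and 776, 790.3 and 572 TPM in SH. It rose in both populations, from a higher start in SN, by 3.52 and 1.85 on the log2 scale (difference −1.66 ± 0.40, SE, limma adjusted p = 0.0129). The hypoxic groups UH and SH overlapped in this gene.

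The p53 targets Perp, a desmosomal protein linked to apoptosis, and Pmaip1, which encodes the BH3-only protein NOXA, rose in sorted cells only. Perp was at 1.64, 2.45 and 2.19 TPM in SN and 16.3, 20.3 and 11.1 TPM in SH, against 8.48, 14.2 and 13.9 TPM in UN and 10.4, 8.14 and 10.4 TPM in UH (difference 2.70 ± 0.34, SE, limma adjusted p = 0.000335). Pmaip1 was at 25.0, 20.8 and 32.1 TPM in SN and 76.8, 87.6 and 68.6 TPM in SH, against 14.3, 31.1 and 32.9 TPM in UN and 11.996, 12.9 and 16.3 TPM in UH (difference 2.37 ± 0.38, SE, limma adjusted p = 0.00164). SH held the highest values of Pmaip1, while its UN libraries spanned the range of SN. Cdkn2b, which encodes the kinase inhibitor p15, fell by 1.48 in UH and had a change of 0.47 in SH (log2, difference 1.95 ± 0.25, SE, limma adjusted p = 0.000467). Cdkn2a, the mutated locus, fell by 1.80 in UH and had a change of −0.57 in SH, with a difference of 1.23 ± 0.27 (SE, limma adjusted p = 0.00853) that was not called with median-of-ratios scaling. It was at 66.4 to 327 TPM in unsorted and 7.37 to 16.5 TPM in sorted libraries, and the level of its mRNA does not check a mutation that all libraries carried.

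The core of the HIF response was shared by both populations. Of 21 glycolytic genes, 18 rose in UH and 18 rose in SH, with medians of 2.37 and 2.01. Of 30 direct HIF targets, 28 rose in each, with medians of 3.08 and 2.38. No member of either list was more positive in sorted cells, whereas 3 glycolytic genes (14.3%) and 7 direct targets (23.3%) were less positive, against 2.18% of all genes. The median differences were −0.23 and −0.25 beside 0.25 for all genes, and −0.58 and −0.60 beside 0.02 with median-of-ratios scaling. None of the 12 tested genes of the HIF system itself, which are its subunits, hydroxylases and partners, was called by limma, and 5 rose in UH and 5 in SH. In the start-site windows, ACGTG or CACGT stood in 20 of 31 windows of the direct targets (64.5%), covering 23 of 30 genes, in 16 of 34 windows of the glycolytic list (47.1%) and in 19.6% of all windows.

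Vegfa, the main hypoxic angiogenic factor, showed this shared response. It was at 100.2, 99.6 and 109 TPM in UN, 716, 939 and 1024 TPM in UH, 83.3, 90.1 and 147 TPM in SN and 930.1, 943 and 660.3 TPM in SH. The hypoxic groups overlapped, as did the normoxic groups, and the log2 changes of 3.09 and 3.00 had a difference of −0.09 ± 0.30 (SE, limma adjusted p = 0.853). Pgk1, phosphoglycerate kinase, rose by 2.40 and 2.51 (difference 0.11 ± 0.13, SE, limma adjusted p = 0.569), and Ldha, lactate dehydrogenase A, by 1.78 and 1.55 (difference −0.23 ± 0.13, SE, limma adjusted p = 0.213).

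Membrane transporters of glucose and lactate were among the members that rose less in sorted cells. Slc2a1 (chr4:119108711-119137983), which encodes the glucose transporter GLUT1, was at 48.8, 31.0 and 31.5 TPM in UN, 681, 698 and 734 TPM in UH, 57.2, 57.7 and 73.0 TPM in SN and 416, 405 and 363 TPM in SH. It rose in both, and all SH libraries lay below all UH libraries (log2 changes 4.24 and 2.64, difference −1.60 ± 0.23, SE, limma adjusted p = 0.000715). Slc16a3, which encodes the lactate exporter MCT4, was at 6.27, 1.53 and 1.91 TPM in UN and 70.4, 84.6 and 75.5 TPM in UH. It was at 0.471, 0.519 and 0.279 TPM in SN and 0.970, 0.852 and 1.07 TPM in SH, so that SH did not reach any unsorted library. Its log2 change was 4.36 in unsorted cells and 0.47 in sorted cells, where it was not called (difference −3.89 ± 0.44, SE, limma adjusted p = 0.000182). The start-site window of Slc16a3, at chr11:120948817-120949116 on the plus strand, held ACGTG at 2 places, shown in capitals because the response of this HIF target was called in unsorted cells and not in sorted cells, whose levels were near 1 TPM or below.
Slc16a3: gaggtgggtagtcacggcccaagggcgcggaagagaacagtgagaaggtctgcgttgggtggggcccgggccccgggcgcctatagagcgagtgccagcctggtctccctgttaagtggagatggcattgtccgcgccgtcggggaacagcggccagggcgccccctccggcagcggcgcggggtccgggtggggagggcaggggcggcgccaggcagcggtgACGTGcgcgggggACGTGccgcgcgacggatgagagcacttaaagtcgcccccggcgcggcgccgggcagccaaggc

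Other HIF targets also had a less positive response in sorted cells, and not all of them were lower in SH than in UH. Stc1 and Stc2, secreted stanniocalcins, differed by −1.82 ± 0.27 and −1.71 ± 0.22 (SE, limma adjusted p = 0.000918 and 0.000469). Stc2 was at 10.6, 13.1 and 12.4 TPM in UN and 50.4, 59.6 and 59.1 TPM in UH, against 36.2, 36.5 and 33.3 TPM in SN and 55.1, 55.6 and 35.9 TPM in SH, so that SN started nearer to the hypoxic level. Bhlhe40, a transcriptional repressor, was at 46.7, 34.7 and 39.1 TPM in UN and 282, 295 and 357 TPM in UH. It was at 85.9, 73.6 and 138 TPM in SN and 390, 402 and 186 TPM in SH, so that UH and SH overlapped and SN started higher than UN. It differed by −1.25 ± 0.41 (SE, limma adjusted p = 0.0482), and without SH replicate 3 this was −0.89 (adjusted p = 0.0665). With quantile normalisation it was not called (limma adjusted p = 0.0743). It was not called in 9 of the 12 fits that left out 1 library (adjusted p = 0.0504 to 0.111). Car12, a membrane carbonic anhydrase, differed by −2.46 ± 0.68 (SE, limma adjusted p = 0.0242), and was not called in 5 of these 12 fits (adjusted p = 0.051 to 0.055), that without SH replicate 3 among them. With a pseudocount of 0.1 the difference of Car12 was −1.46 (limma adjusted p = 0.25) and was not called, and the ratio of group means was 15.9 in unsorted and 10.4 in sorted cells. Aldoc, an aldolase, was at 16.3, 17.1 and 4.61 TPM in SH against 40.6, 41.3 and 43.8 TPM in UH, a difference of responses of −1.93 ± 0.56 (SE, limma adjusted p = 0.0298) that was not called in 8 of the 12 (adjusted p = 0.0528 to 0.0758). The count of 7 direct targets ranged from 4 to 9 when 1 library was left out, and it was 4 without UH replicate 2, UH replicate 3 or SN replicate 3.

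Of 34 secreted angiogenic factors, 7 (20.6%) were less positive and 3 (8.82%) more positive, against 2.18% and 8.08% of all genes, so that the more positive share was near that of all genes. The median difference was −0.04 (−0.32 with median-of-ratios scaling), and 6 were more positive without UN replicate 1. Placental growth factor, Pgf (chr12:85166635-85177790), a ligand of FLT1, was at 0.547, 0.3995 and 0.482 TPM in UN, 178, 172 and 152 TPM in UH, 0.920, 0.595 and 0.465 TPM in SN and 4.39, 4.09 and 1.61 TPM in SH. Both populations started below 1 TPM, and UH lay far above SH (log2 changes 6.83 and 1.33, difference −5.50 ± 0.34, SE, limma adjusted p = 3.61e-06). Adm2, a vasodilator peptide of the adrenomedullin family, was at 52.0, 45.0 and 44.8 TPM in UH and was listed at 0 in each SN library and at 0.412, 0.669 and 0.763 TPM in SH (difference −4.12 ± 0.35, SE, limma adjusted p = 3.25e-05). Apln, the ligand of the apelin receptor, was at 37.1, 45.0 and 46.8 TPM in UH and 8.00, 7.91 and 4.84 TPM in SH (difference −1.73 ± 0.35, SE, limma adjusted p = 0.00552).

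Ctgf, a matrix-associated growth factor and YAP target, was at 209.7, 181 and 176 TPM in UN, 1063, 1216 and 1104 TPM in UH, 72.0, 69.4 and 68.7 TPM in SN and 50.7, 59.2 and 65.9 TPM in SH. It rose by 2.57 in UH, while the change in sorted cells was −0.26 (log2, difference −2.83 ± 0.15, SE, limma adjusted p = 1.61e-06). In the other direction, Figf, which encodes the lymphangiogenic factor VEGF-D, was at 29.2, 25.3 and 25.2 TPM in UN, 43.1, 55.7 and 63.8 TPM in UH, 11.3, 15.9 and 20.5 TPM in SN and 81.9, 80.5 and 89.2 TPM in SH (difference 1.38 ± 0.27, SE, limma adjusted p = 0.00438). Cxcl12, a chemokine for vessel and blood progenitors, was at 441 to 579.7 TPM in all unsorted libraries, 45.7, 43.9 and 32.7 TPM in SN and 190.2, 189 and 222 TPM in SH. It rose in sorted cells without reaching the unsorted level (difference 2.36 ± 0.20, SE, limma adjusted p = 3.21e-05).

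**Figure D3:**
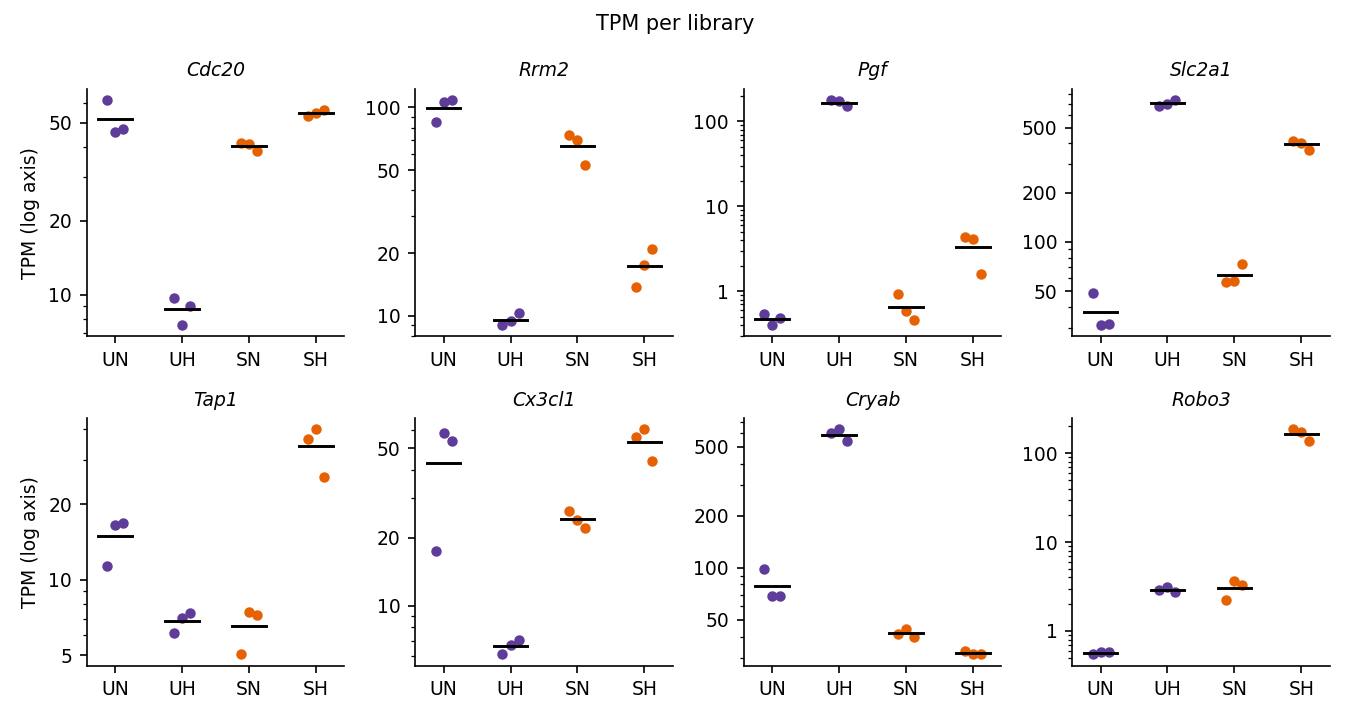
TPM of 8 genes in each of the 12 libraries on log axes, with points for the 3 libraries of UN, UH, SN and SH and a bar at each group mean. Cdc20 was lowest in UH, Pgf and Slc2a1 rose more in UH than in SH, Cryab rose in UH only, and Robo3 was highest in SH at 136 to 185 TPM.

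Few members of the mitochondrial and ribosomal lists differed between the populations, while 8.08% of all genes were more positive and 2.18% less positive. The 13 mitochondrially encoded mRNAs had no difference called by limma, with 9 lower in UH and 9 lower in SH and medians of −1.49 and −1.59. Of 80 nuclear respiratory chain subunits 1 was more positive and none less positive, of 77 mitochondrial ribosomal proteins 1 in each direction, and of 81 cytosolic ribosomal proteins none was called. Of 34 genes of ribosome biogenesis, 21 fell in UH and 18 in SH, and 2 were more positive (1 without UN replicate 3). Cholesterol synthesis fell in both, with 16 of 25 genes lower in UH and 18 lower in SH. Of these 25, 1 (4%) was more positive and 3 (12%) less positive, near the 14.3% of glycolysis, and all 3 held under every scaling. The less positive members included Sqle, squalene epoxidase, and Fdps, farnesyl diphosphate synthase, which was not called in 8 of the 12 fits without 1 library (limma adjusted p = 0.0527 to 0.0782).

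**Figure D4:**
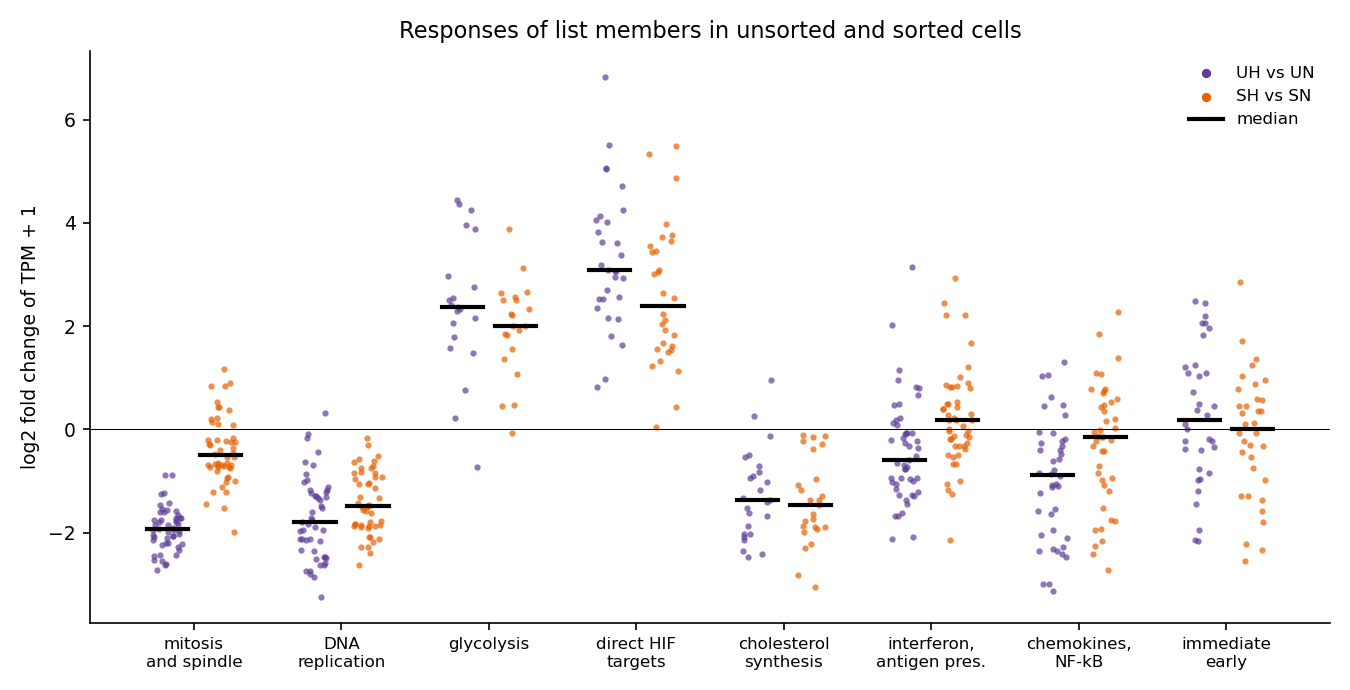
Log2 fold change of TPM + 1 of each member of 8 lists in unsorted (purple, UH vs UN) and sorted cells (orange, SH vs SN), with black bars at the medians. The medians of mitosis were −1.94 and −0.50, while those of DNA replication (−1.81 and −1.49), glycolysis (2.37 and 2.01) and cholesterol synthesis (−1.38 and −1.47) lay close together.

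Of 49 genes of antigen presentation and the interferon response, 11 (22.4%) were more positive in sorted cells and 1 (2.04%) less positive, against 8.08% and 2.18% of all genes, and 8 of the 11 were called under every scaling. 15 fell and 3 rose in UH, and 5 fell and 7 rose in SH. The list started lower in sorted cells, with 16 genes lower in SN than in UN and none higher. Against UH, 9 genes were lower in SH and 6 higher. The mean of log2(TPM + 1) over the list was 4.05 in UN, 3.63 in UH, 3.19 in SN and 3.41 in SH. The median difference was 0.47 beside 0.25 for all genes, and 0.22 beside 0.02 with median-of-ratios scaling. The more positive genes included 3 of the pathway that loads peptides on MHC class I (Tap1, Tap2 and Psmb9) and its transcriptional activator Nlrc5. The immune marker sum, which was highest in SH, moved in the same direction, and its part in this result was not tested. Of the 10 immune markers 5 passed the filter and 1, Cd74, was more positive. Cd68, a lysosomal protein, made up 51.2 to 55.9 TPM of the sum in SH, whereas the leukocyte marker Ptprc reached at most 0.121 TPM and the T cell marker Cd3e at most 0.111 TPM in any library. Clec4f was listed at 0 in all.

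Tap1 (chr17:34187553-34197225), a subunit of the peptide transporter, fell in UH and rose in SH. It was at 11.4, 16.6 and 16.8 TPM in UN, 6.12, 7.03 and 7.40 TPM in UH, 5.04, 7.41 and 7.26 TPM in SN and 36.6, 39.8 and 25.8 TPM in SH. SH was higher than all other libraries, and UH and SN overlapped (log2 changes −1.002 and 2.21, difference 3.21 ± 0.29, SE, limma adjusted p = 4.29e-05). Nlrc5 was at 4.96, 9.19 and 5.74 TPM in SH and at most 2.26 TPM elsewhere (difference 3.14 ± 0.37, SE, limma adjusted p = 0.00025), and Mx2, an antiviral GTPase, at 4.83, 6.73 and 5.56 TPM in SH and at most 2.80 TPM elsewhere (difference 2.72 ± 0.33, SE, limma adjusted p = 0.000287). With a pseudocount of 0.1 the differences of Nlrc5 and Mx2 were 5.09 and 4.33. H2-T23, a non-classical class I molecule, was the 1 exception, at 55.7, 59.6 and 50.2 TPM in UH and 26.5, 30.2 and 19.4 TPM in SH (difference −1.19 ± 0.27, SE, limma adjusted p = 0.00934). Class I genes are close paralogs, and the assignment of reads among them is uncertain.

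Of 42 chemokines and targets of NF-κB, 12 (28.6%) were more positive in sorted cells and 2 (4.76%) less positive, against 8.08% and 2.18% of all genes, and 8 of the 12 were called under every scaling. In the list 20 fell in UH and 9 in SH, and the median difference was 0.69 (0.46 with median-of-ratios scaling). The more positive count ranged from 8 to 18 when 1 library was left out, with 18 without UN replicate 1. Cx3cl1, the membrane-bound chemokine fractalkine, was at 17.5, 58.1 and 53.6 TPM in UN, 6.07, 6.71 and 7.01 TPM in UH, 26.4, 24.1 and 22.2 TPM in SN and 55.8, 60.5 and 43.9 TPM in SH. UN replicate 1 was low within its group, and the opposite directions also held without it (log2 changes −2.37 and 1.10, difference 3.47 ± 0.48, SE, limma adjusted p = 0.000684, 4.004 without UN replicate 1). Csf2, the growth factor GM-CSF, was at 25.9, 107 and 135 TPM in UN and 8.03, 7.84 and 8.58 TPM in UH, but 129, 112 and 232 TPM in SN and 105, 148 and 159 TPM in SH (difference 2.86 ± 0.69, SE, limma adjusted p = 0.0132). The 2 less positive members, the chemokines Ccl11 and Cxcl3, fell in sorted cells, where they started higher. The ratio of the UH to the UN mean was 0.0964 for Ccl11 and 0.0947 for Cxcl3, and that of SH to SN 0.0435 and 0.0587. With a pseudocount of 0.1 neither was called (limma adjusted p = 0.124 and 0.257), and no member of the list was then less positive. Ccl11 was at 6.05, 5.63 and 5.26 TPM in SN and 0.264, 0.192 and 0.281 TPM in SH (difference −1.51 ± 0.43, SE, limma adjusted p = 0.0284, with 8 of the 12 fits without 1 library not called, adjusted p = 0.053 to 0.0737).

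Of 34 immediate early genes, which respond to growth factor and stress signals, 7 (20.6%) were less positive and 1 (2.94%) more positive. The shares of all genes were 2.18% and 8.08%, and each call in the list held under every scaling. Dusp1, a MAP kinase phosphatase, was at 96.1, 51.7 and 53.9 TPM in UN, 262, 319.9 and 313 TPM in UH, 157, 148 and 179.6 TPM in SN and 186, 181 and 152 TPM in SH. It rose in UH and SN overlapped with SH (difference −2.09 ± 0.28, SE, limma adjusted p = 0.000582). Egr3, a zinc finger transcription factor, was at 16.7, 11.4 and 23.2 TPM in SN and 1.99, 2.08 and 1.82 TPM in SH, and between 0.7004 and 1.64 TPM in unsorted libraries (difference −2.18 ± 0.31, SE, limma adjusted p = 0.000707). For 10 of the 34 genes the level in SN was higher than in UN. Of 30 YAP and TEAD targets 3 (10%) were less positive and 1 (3.33%) more positive, or 6 without UN replicate 1. Beside Ctgf, the less positive members included Ankrd1, at 265, 246 and 264 TPM in UN and 683, 741 and 737 TPM in UH, but 668, 626 and 718 TPM in SN and 605, 679.5 and 773 TPM in SH (difference −1.45 ± 0.14, SE, limma adjusted p = 7.85e-05). Ankrd1 in sorted cells thus overlapped with UH, with and without hypoxia.

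Matrix genes differed in both directions, and the summed fibroblast and pericyte markers were lower in sorted cells and stood apart in UN replicate 1. Of the 17 markers 14 passed the filter, of which 8 were lower in SN than in UN and 9 lower in SH than in UH. In normoxia not all were lower in sorted cells. Dcn was at 116 to 126 TPM in SN, within its UN range of 81.3 to 349 TPM. Pdgfrb was at 40.3 to 47.7 TPM in SN, within its UN range of 28.4 to 74.6 TPM. In hypoxia both genes were lower in sorted cells. Dcn was at 17.6 to 32.5 TPM in SH against 49.9 to 61.0 TPM in UH. Pdgfrb was at 5.98 to 6.19 TPM in SH, below every UH library. Of the 14, 2 (14.3%) were less positive and 1 (7.14%) more positive, and 8 were less positive without UN replicate 1. Lrat was listed at 0 in all libraries, and Col1a2, a chain of type I collagen, was at 126 to 1011 TPM in unsorted and 0.198 to 0.562 TPM in sorted libraries. The part of these markers in the matrix results was not tested. Of all genes 8.08% were more positive and 2.18% less positive. Of 31 collagen chains 5 (16.1%) were more positive and 3 (9.68%) less positive, and of 34 other matrix proteins 7 (20.6%) and 4 (11.8%). For 21 metalloproteinases and their inhibitors these numbers were 3 (14.3%) and 5 (23.8%), and for 22 genes of mesenchymal transition 2 (9.09%) and 5 (22.7%). Without UN replicate 1 the less positive members numbered 9 of the collagen chains, 7 of the other matrix proteins and 8 of mesenchymal transition, and 3 of the last when most other libraries were left out. Col16a1, a fibril-associated collagen, was at 47.5, 47.2 and 40.7 TPM in UN, 275, 350.5 and 313 TPM in UH, 10.7, 6.98 and 8.92 TPM in SN and 14.5, 15.5 and 14.7 TPM in SH (difference −2.06 ± 0.20, SE, limma adjusted p = 7.23e-05). Col6a2, a chain of beaded filament collagen, fell in UH, from 358, 464 and 438 TPM to 74.4, 105 and 100.5 TPM, and was at 170.3, 162 and 199 TPM in SN and 112, 101 and 135 TPM in SH (difference 1.55 ± 0.22, SE, limma adjusted p = 0.000791). Col9a3, a cartilage-type collagen chain, was at 16.8, 19.2 and 14.6 TPM in SH and at most 2.75 TPM elsewhere (difference 2.65 ± 0.32, SE, limma adjusted p = 0.000294).

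Some called matrix genes were nearly silent in sorted cells, and in others UN replicate 1 was far above its group. Timp3, a metalloproteinase inhibitor, rose from 236, 202 and 196 TPM in UN to 1409.7, 2000.1 and 2205 TPM in UH and did not exceed 2.34 TPM in sorted libraries (difference −2.63 ± 0.27, SE, limma adjusted p = 9.9e-05). Fbln5, an elastic fibre protein, was listed at 0 in all 6 sorted libraries. Lox, the collagen cross-linking oxidase and a HIF target, was at 145, 128 and 128 TPM in UN, 516, 770.4 and 918 TPM in UH, 0.176, 0.112 and 0.123 TPM in SN and 0.807, 0.746 and 0.529 TPM in SH. The ratio of group means was 5.50 in unsorted and 5.08 in sorted cells, yet the difference on log2(TPM + 1) was −1.84 ± 0.25 (SE, limma adjusted p = 0.000569), and with a pseudocount of 0.1 it was −0.68. The call for Lox therefore depended on the pseudocount. Biglycan, Bgn, was at 1126 TPM in UN replicate 1 and 212 and 219 TPM in the other UN libraries, and its difference of −2.77 ± 0.67 (SE, limma adjusted p = 0.0137) was larger, −3.56, without that library. Acta2, smooth muscle actin, was at 845, 172 and 162 TPM in UN and fell in sorted cells, from 32.8, 34.7 and 24.2 TPM to 1.59, 1.25 and 9.43 TPM (difference −3.08 ± 0.89, SE, limma adjusted p = 0.03, and −3.86 without UN replicate 1). In 10 of the 12 fits that left out 1 library Acta2 was not called (adjusted p = 0.0507 to 0.0778).

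Hepatocyte and plasma protein lists are to be read against 8.08% more positive and 2.18% less positive of all genes. Under every scaling these shares were 3.74% and 2.14%. Of 23 tested hepatocyte transcription factors 4 (17.4%) were more positive, 3 of them under every scaling, and none less positive. Without UN replicate 1, 7 were more positive. Of 11 tested hepatocyte lineage markers 4 (36.4%) were more positive, each under every scaling and with Cebpa and Apob among them, and none less positive. Apob did not exceed 0.257 TPM in any sorted library, so that its difference rested on the unsorted cells. Cebpa, a liver-enriched factor that restrains proliferation, was at 7.69, 13.9 and 17.9 TPM in UN, 1.91, 2.72 and 3.10 TPM in UH, 4.94, 4.68 and 5.58 TPM in SN and 11.1, 9.23 and 8.12 TPM in SH. It fell in UH and had a change of 0.78 in sorted cells, with SH above SN in each library (difference 2.71 ± 0.36, SE, limma adjusted p = 0.000484). Of 42 plasma protein genes 4 (9.52%) were called in each direction, and 2 were less positive without UH replicate 3. Hp, haptoglobin, was at 33.8, 13.99 and 14.1 TPM in UN, 4.09, 3.53 and 3.63 TPM in UH, 36.6, 39.4 and 67.1 TPM in SN and 0.155, 0.451 and 0.572 TPM in SH, a fall in both that was larger in sorted cells (difference −3.02 ± 0.45, SE, limma adjusted p = 0.000953). Hpx, hemopexin, which binds free haem as haptoglobin binds free haemoglobin, was at 5.38, 5.49 and 5.18 TPM in SH and at most 2.58 TPM elsewhere (difference 2.30 ± 0.24, SE, limma adjusted p = 0.000116, and 3.62 with a pseudocount of 0.1).

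Of 18 tested endothelial core genes, 4 (22.2%) were more positive and 1 (5.56%) less positive, against 8.08% and 2.18% of all genes. Under every scaling 1 was called in each direction, and 2 were more positive without UH replicate 3 or SH replicate 3. Esam, a junctional adhesion molecule, was at 7.70, 8.66 and 5.35 TPM in SH and at most 2.43 TPM elsewhere (difference 1.36 ± 0.31, SE, limma adjusted p = 0.00927). Flt1, the receptor of VEGF-A and PGF, was at 17.8, 23.1 and 28.0 TPM in UH and 4.06, 4.22 and 3.31 TPM in SH, and at most 3.60 TPM in normoxia (difference −1.72 ± 0.30, SE, limma adjusted p = 0.00246). Flt1 thus moved in the direction of its ligand Pgf.

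**Figure D5:**
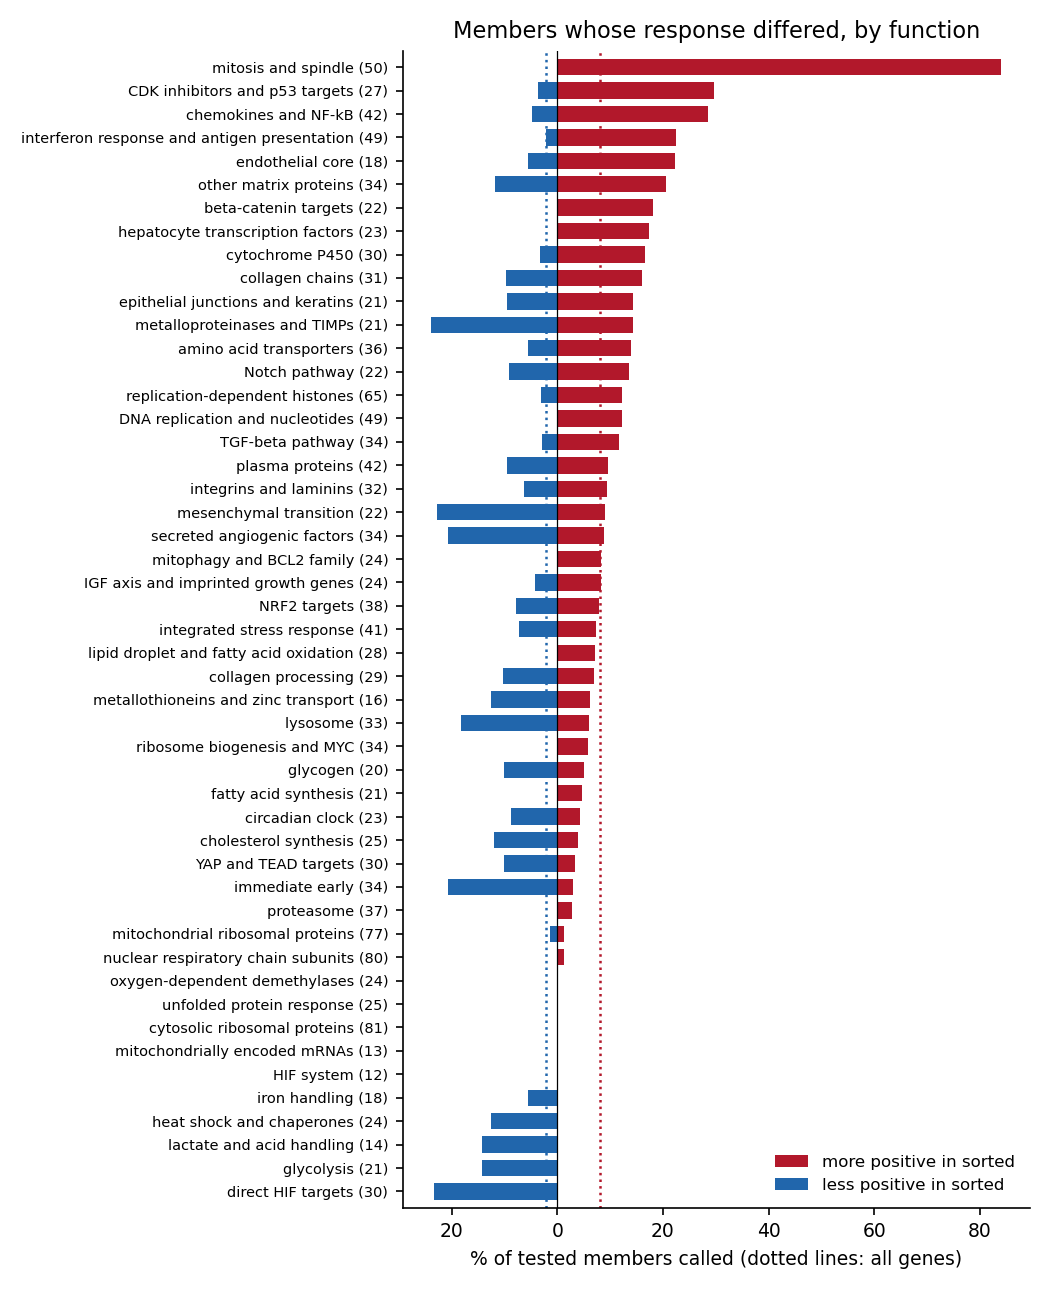
Percent of the tested members of each list (number in brackets) whose response was more positive (red, right) or less positive (blue, left) in sorted cells, with dotted lines at the 8.08% and 2.18% of all tested genes. Mitosis and spindle was at 84.0% on the more positive side, while direct HIF targets, glycolysis and immediate early genes lie on the less positive side.

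Stress and degradation lists added smaller groups. Of 24 heat shock genes none was more positive and 3 (12.5%) were less positive, against 8.08% and 2.18% of all genes. The largest difference was that of Cryab, a small heat shock protein. It was at 98.2, 68.3 and 68.6 TPM in UN, 599.7, 631 and 539 TPM in UH, 41.2, 44.0 and 39.9 TPM in SN and 33.0, 31.8 and 31.5 TPM in SH. It rose in UH only, and SH was the lowest of the 4 groups (difference −3.28 ± 0.18, SE, limma adjusted p = 1.75e-06). The metallothioneins Mt1 and Mt2, which bind zinc, rose steeply in both populations and less in sorted cells. Mt2 was at 35.7, 50.8 and 39.5 TPM in UN, 2307, 1837 and 1767 TPM in UH, 5.05, 4.08 and 6.998 TPM in SN and 92.5, 98.8 and 101 TPM in SH (log2 changes 5.52 and 3.97, difference −1.55 ± 0.25, SE, limma adjusted p = 0.00145). Of 33 lysosomal genes, 6 (18.2%) were less positive and 2 (6.06%) more positive (0 to 2 when 1 library was left out). Their median difference was −0.36 (−0.64 with median-of-ratios scaling). Of the 25 genes of the unfolded protein response none was called by limma.

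Ctsc, cathepsin C, had a log2 change of −0.97 in UH that was not called and fell in sorted cells, from 34.7, 33.6 and 30.97 TPM to 6.46, 6.69 and 4.92 TPM (difference −1.32 ± 0.31, SE, limma adjusted p = 0.0124). Of 41 genes of the integrated stress response 3 (7.32%) were called in each direction, against 8.08% more positive and 2.18% less positive of all genes. In this list 5 were less positive without UN replicate 1 and 5 more positive without UH replicate 3 or SH replicate 2. Slc7a5, the large neutral amino acid transporter LAT1, was at 135, 126 and 122 TPM in SH and between 33.2 and 56.3 TPM elsewhere (difference 1.504 ± 0.18, SE, limma adjusted p = 0.000234). Slc38a2, a small neutral amino acid transporter, was at 29.1, 31.6 and 27.3 TPM in SH against 64.4, 59.0 and 50.8 TPM in SN, and at 77.5, 103 and 122 TPM in UH (difference −1.38 ± 0.21, SE, limma adjusted p = 0.00109). Of 38 NRF2 targets 3 (7.89%) were called in each direction, with 6 more positive without UN replicate 1. Among them was G6pdx, the first enzyme of the pentose phosphate pathway, which fell by 1.77 in SH and had a change of −0.58 in UH (difference −1.19 ± 0.17, SE, limma adjusted p = 0.000695).

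The genes with the largest differences were often outside these lists. Robo3 (chr9:37415669-37433246), an axon guidance receptor, was at 0.543, 0.577 and 0.575 TPM in UN, 2.86, 3.11 and 2.74 TPM in UH, 2.25, 3.68 and 3.25 TPM in SN and 185, 175 and 136 TPM in SH. It rose in both populations, and UH and SN overlapped (log2 changes 1.32 and 5.36, difference 4.04 ± 0.23, SE, limma adjusted p = 2.25e-06). Svop, a synaptic vesicle transporter-like protein, was at 17.3, 14.9 and 13.1 TPM in SH and did not exceed 0.459 TPM in the other 9 libraries (difference 3.61 ± 0.19, SE, limma adjusted p = 1.61e-06). Tnfrsf9, the costimulatory receptor 4-1BB, was at 322, 377 and 358 TPM in UH and 7.85, 10.04 and 8.97 TPM in SH, and it rose in both (difference −4.06 ± 0.49, SE, limma adjusted p = 0.000286).

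Of the 25 genes with opposite responses, 22 fell in UH and rose in SH, and 3, Dusp4, H19 and Grem1, rose in UH and fell in SH. The difference of each of the 25 was called under every scaling. Sned1, a secreted matrix protein, was at 31.7, 79.4 and 106 TPM in UN, 2.84, 6.57 and 8.45 TPM in UH, 3.15, 2.81 and 4.01 TPM in SN and 13.99, 12.4 and 6.78 TPM in SH. UN was the highest group, and UH overlapped with SN and with SH (log2 changes −3.33 and 1.43, difference 4.77 ± 0.61, SE, limma adjusted p = 0.000434). Relt, a member of the TNF receptor family, was at 6.07, 13.1 and 11.02 TPM in UN, 3.59, 4.05 and 4.26 TPM in UH, 4.35, 3.45 and 4.56 TPM in SN and 20.1, 19.4 and 13.1 TPM in SH (difference 2.94 ± 0.34, SE, limma adjusted p = 0.000231). SN overlapped with UH in this gene as in Tap1.

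Dusp4, a nuclear MAP kinase phosphatase, was at 19.9, 8.87 and 9.31 TPM in UN, 22.9, 30.4 and 33.2 TPM in UH, 41.6, 35.8 and 81.1 TPM in SN and 14.02, 12.8 and 21.9 TPM in SH (log2 changes 1.2005 and −1.59, difference −2.79 ± 0.49, SE, limma adjusted p = 0.00253). H19, an imprinted long noncoding RNA of fetal liver, was at 36.7, 41.6 and 38.1 TPM in UN, 87.6, 109 and 107 TPM in UH, 11.1, 12.1 and 3.30 TPM in SN and 3.87, 4.69 and 0.959 TPM in SH (difference −2.57 ± 0.61, SE, limma adjusted p = 0.012). Replicate 3 was the lowest library of both sorted groups in H19. Grem1, a secreted inhibitor of bone morphogenetic proteins, was at 14.4, 7.07 and 6.44 TPM in UN, 15.7, 22.6 and 26.3 TPM in UH, 51.02, 50.6 and 58.9 TPM in SN and 16.9, 16.1 and 28.8 TPM in SH (difference −2.56 ± 0.41, SE, limma adjusted p = 0.00164). For Dusp4 and Grem1, SN was above UN in every library, whereas for H19 it was below.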

How the data were processed

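RNA was sequenced from 12 libraries of BN1 cells in 4 groups of 3. The labels name a stranded mRNA kit, the study's methods nf-core/rnaseq, the deposited table Salmon, and the submitters' processing notes the mm10 build. The authors deposited 1 table of TPM values (transcript abundances corrected for length), in which each library sums to 1000000, and columns were matched to samples by name. The study tested counts with DESeq2, and counts were not used here. TPM values were transformed to log2(TPM + 1) and, with R 4.3.3, a model of limma 3.58.1 was used that had 1 mean per group, empirical Bayes with a trend and Benjamini-Hochberg adjustment over 18909 genes with a mean of at least 0.1 TPM. Because of the added 1, fold changes of low genes are understated. Genes were called at an adjusted p under 0.05 and an absolute log2 value above 1. Coordinates are those of GENCODE M21. The named genes were the 15 with the largest differences in each direction called under every scaling with at least 5 TPM in 1 group, the 10 strongest opposite genes in each direction, up to 4 called members per list and direction, and Tek, Vegfa and Cdkn2a. Predicted genes were not named, and some genes that met the rule are not reported here. Aurka, Plk1, Foxm1, Mcm5, Pcna, Ldha, Pgk1, Dcn, Col1a2, the uncalled mitotic genes and the named immune and fibroblast markers were chosen after their values were seen. The comparison, the lists and the rule were chosen with earlier results of these data known. Promoter windows came from RefSeq (GRCm38.p6). The script was tested on simulated data.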

Additional observations from a re-analysis of the deposited data

Results flagged for a closer look

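The responses of sorted and unsorted cells differed by the test of the difference itself for 1527 genes in the more positive and 412 genes in the less positive direction, and 25 genes responded in opposite directions. Of the named genes with the largest differences, those not described above are given here as differences of log2 fold changes. More positive in sorted cells were Zcwpw1 (2.24), Clca3a2 (2.42), Crip2 (2.54), Gdap1l1 (2.63), Shisa4 (2.63), Garnl3 (2.77), Cbr2 (3.24), Slc1a3 (3.27), Prrx2 (3.27), Npnt (3.34), Gsta4 (3.34), Grik5 (3.44), P2rx7 (3.50), Krt13 (3.87), Lgals2 (3.88), Adamts16 (3.90) and Limch1 (3.97). Less positive were Rarres2 (−4.18), Npas1 (−4.004), Syt5 (−3.86), Il13ra2 (−3.69), Sncb (−3.56), Ptgds (−3.50), Serpinb2 (−3.45), Ranbp3l (−3.39), Fibcd1 (−3.38), Cacng4 (−3.35) and Pygl (−3.32). Those described above were Sned1 (4.77), Robo3 (4.04), Svop (3.61), Cx3cl1 (3.47), Tap1 (3.21), Cdkn3 (2.78), Pgf (−5.50), Adm2 (−4.12), Tnfrsf9 (−4.06), Slc16a3 (−3.89), Dusp4 (−2.79), H19 (−2.57) and Grem1 (−2.56).

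With a pseudocount of 0.1 the differences moved by more than 1.5 times for Cbr2 (6.46), Gdap1l1 (4.28), Npas1 (−6.35) and Rarres2 (−6.43), and these calls held. Gsta4, a glutathione transferase that removes lipid aldehydes, was at 109.7 TPM in UN replicate 1 and 572 and 614 TPM in the other UN libraries. It fell in both populations, to between 10.03 and 11.97 TPM in UH and from between 193 and 211 TPM in SN to between 54.7 and 99.5 TPM in SH. Slc1a3, a glutamate transporter, fell in UH from 17.7, 28.0 and 25.1 TPM to 1.38, 1.49 and 1.94 TPM, and did not exceed 0.320 TPM in any sorted library. Limch1 was at 5.86, 38.4 and 39.2 TPM in UN, and all other libraries were below 1 TPM, so that its difference, 4.81 without UN replicate 1, rested on the unsorted cells. P2rx7, an ATP-gated ion channel, was at 18.6, 15.2 and 8.02 TPM in SH and at most 4.34 TPM elsewhere.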

How the results depend on the processing

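The count of more positive genes was 903 with median-of-ratios scaling, 774 with quantile normalisation, 3298 without the fold threshold and 2344 without both UN replicate 1 and SH replicate 3. That of less positive genes was 783, 742 and 853 under the first 3 of these settings, 684 with array weights, 636 without UN replicate 1 and 858 with median-of-ratios scaling and a pseudocount of 0.1. Opposite genes numbered 16, 12 and 301 under the same first 3, 128 with a pseudocount of 0.1, 49 with array weights, 44 without UN replicate 1, 88 with median-of-ratios scaling and a pseudocount of 0.1, and 59 without both libraries. The median difference of 0.25 became 0.0242, 0.00372, 0.361, 0.0983 and 0.0383 with median-of-ratios scaling, quantile normalisation, a pseudocount of 0.1, no filter, and median-of-ratios scaling with that pseudocount. The cause was not tested. Leaving out each library in turn gave 1266 to 2110 more positive, 335 to 636 less positive and 17 to 44 opposite genes, and medians of 0.20 to 0.29. The highest count of each was that without UN replicate 1.

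Same-numbered libraries of different groups had correlations of their deviations from −0.116 to 0.141. These values cannot show whether such libraries shared a culture or a batch. A replicate block gave 1522 more positive and 400 less positive genes. Of 1527 more positive genes, 902 remained called with median-of-ratios scaling and 1426 with a pseudocount of 0.1, and of 412 less positive genes 412 and 358. Of 222 named called genes, 192 kept their call with median-of-ratios scaling, 183 with quantile normalisation, 189 with median-of-ratios scaling and a pseudocount of 0.1, 217 with the block and 191 to 218 without 1 library, and none reversed. Both settings that combine 2 changes, and the level limit of 1 TPM in each population, were chosen after seeing the data. Genes under 1 TPM in both sorted groups (211 more and 88 less positive) carry little information on the response of sorted cells.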

Other observations

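Pathways outside the main groups held scattered differences. All counts in this section are to be read against the shares of all genes, 8.08% more positive and 2.18% less positive. Of 22 Notch pathway genes 3 were more and 2 less positive, and 5 were more positive without SN replicate 3. Notch1, a receptor, was at 9.74, 9.52 and 9.94 TPM in UN, 3.04, 5.47 and 5.54 TPM in UH, 20.8, 20.98 and 20.7 TPM in SN and 31.4, 31.2 and 20.5 TPM in SH (difference 1.32 ± 0.28, SE, limma adjusted p = 0.00738). Of 34 TGF-β genes 4 were more and 1 less positive, and 2 were more positive in 7 of the fits that left out 1 library. Tgfb3, a ligand, fell in UH from 30.3, 54.7 and 49.7 TPM to 6.21, 6.87 and 8.27 TPM and stayed between 7.28 and 10.9 TPM in sorted libraries (difference 2.12 ± 0.28, SE, limma adjusted p = 0.000465).

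Of 22 β-catenin targets 4 were more positive, 1 under every scaling, with a range of 1 to 8 when 1 library was left out and 8 without UN replicate 1. Of 30 cytochrome P450 genes 5 were more and 1 less positive, with 8 more positive without UN replicate 1, among them Cyp1b1, which fell in UH from 99.5, 108 and 111 TPM to 15.5, 18.1 and 23.6 TPM and was at 21.4, 20.996 and 30.7 TPM in SN and 13.4, 14.4 and 15.05 TPM in SH (difference 1.72 ± 0.23, SE, limma adjusted p = 0.000561). Of 23 clock genes 1 was more and 2 less positive, and Nr1d1, the repressor REV-ERBα, was at 106, 97.4 and 73.8 TPM in SH and 20.1, 25.2 and 28.2 TPM in UH (difference 1.55 ± 0.43, SE, limma adjusted p = 0.0256, not called in 8 of the 12 fits without 1 library, adjusted p = 0.0502 to 0.0675). Of 36 amino acid transporters 5 (13.9%) were more and 2 (5.56%) less positive. For 32 integrins and laminins these numbers were 3 (9.38%) and 2 (6.25%), with 6 more positive without UN replicate 1 and 5 without UH replicate 2. For 21 epithelial genes they were 3 (14.3%) and 2 (9.52%), for 29 genes of collagen processing 2 (6.90%) and 3 (10.3%). They were 2 (8.33%) and 1 (4.17%) for 24 genes of the IGF axis, and 2 (8.33%) and 0 for 24 of mitophagy and the BCL2 family. For 28 genes of lipid droplets and fatty acid oxidation they were 2 (7.14%) and 0, for 21 of fatty acid synthesis 1 (4.76%) and 0. They were 1 (5%) and 2 (10%) for 20 of glycogen, and 0 and 2 (14.3%) for 14 of lactate and acid handling. For 18 of iron handling they were 0 and 1 (5.56%), and for 16 of metallothioneins and zinc transport 1 (6.25%) and 2 (12.5%). They were 1 (2.70%) and 0 for 37 of the proteasome. Without UN replicate 1 the more positive members numbered 5 of the IGF axis, 5 of lipid droplets, 4 of mitophagy and 3 of the clock genes, and without UH replicate 1 or SH replicate 2 the less positive amino acid transporters numbered 4. None of 24 oxygen-dependent demethylases was called by limma. Of the 176 tested genes of the hypoxia list that the study used, 11 (6.25%) were more and 21 (11.9%) less positive. The ranges were 6 to 17 and 18 to 30 when 1 library was left out, the 17 without UN replicate 1 and the 6 without SH replicate 2.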
